A study of Mus musculus with 6 samples.

Results

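Cytochrome P450 enzymes of families 2, 3 and 4 were described here in whole mouse lung after repeated instillation of saline or of fine particles. The members were the Ensembl transcripts whose gene symbol is Cyp followed by 2, 3 or 4, a subfamily letter or letters and a number, and their values were summed per symbol. This gave 51 genes with 93 transcripts among 22158 genes with 70782 Ensembl transcripts in all: 34 genes of family 2, 4 of family 3 and 13 of family 4. Symbols that end in a further letter, such as *Cyp4a12b*, and pseudogenes fell outside the rule.

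P450 enzymes are heme proteins, and those of these families sit in the membrane of the endoplasmic reticulum, where they take electrons from P450 oxidoreductase and insert oxygen into their substrates. Families 2 and 3 are known for the oxidation of drugs, solvents and other foreign compounds, and some family 2 enzymes oxidize arachidonic acid to epoxides. Family 4 is known for hydroxylation of fatty acids and leukotrienes at the far end of the chain. In the mouse lung much of this activity lies in club cells, the secretory cells of the small airways, which are marked by *Scgb1a1* and by *Cyp2f2*, the enzyme that turns inhaled naphthalene into a toxic epoxide.

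The samples were 6 RNA libraries from lungs of BALB/c mice, an inbred strain, with a labelled age of 9 weeks. The 3 saline libraries came from mice given 50 µl of saline into the trachea weekly for 8 weeks, and the 3 PM2.5 libraries from mice given the same volume with PM2.5, the fine fraction of airborne particles, at 5 mg per kg of body weight on the same schedule. Both groups carried the replicate numbers 2, 3 and 4, and values below are listed in that order. Nothing in the labels ties the libraries of a group to different mice, and each p-value therefore refers to the spread among these libraries, which may be technical. Values are FPKM, fragments scaled to transcript length and to library size, so levels can be set side by side between genes; the unit was inferred, since the table names none. In bulk RNA of a whole lung, fewer cells of a type and less RNA per cell cannot be told apart.

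The libraries summed to 345089 to 388125 FPKM over all transcripts, and the spacing of their lowest values put their relative depth at 0.878 to 1.03 of that of saline replicate 2, with the lowest in PM2.5 replicate 4. The labelled tissue was matched by its defining genes: the surfactant genes *Sftpb* and *Sftpa1*, the alveolar type 1 gene *Ager* and the club cell gene *Scgb1a1* had their lowest single value at 286 FPKM, for *Sftpa1*. The surfactant gene *Sftpc* stood at 8108, 687 and 861 FPKM with saline and at 6618, 588 and 1952 FPKM with PM2.5. A very abundant gene could thus differ widely between libraries of the same group. PM2.5 replicate 2 was the highest library for most markers of several cell types. It was the highest of the 6 libraries for 15.6% of all genes tested, but for 11 of 14 club cell genes, 9 of 12 ciliated cell genes and 8 of the 9 adipocyte genes tested. Over all genes tested, saline replicate 2 was most often the highest, for 3749 of 14865 genes. In adipocyte genes PM2.5 replicates 3 and 4 also stood apart from saline, on the low side. The adipocyte list summed to 75.8 to 105 FPKM with saline and to 159 FPKM in PM2.5 replicate 2. In PM2.5 replicates 3 and 4 it summed to 33.0 and 28.2 FPKM. Values without PM2.5 replicate 2 are given beside the members in which that library stood apart.

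Transcripts of 2 enzymes made up most of the P450 signal in these families. *Cyp2f2* alone held 61.0% to 66.6% of the members' summed FPKM in each library, and together with *Cyp4b1* it held 83.4% to 87.1%. *Cyp2f2* ranked between 12 and 18 among all genes of a library, and *Cyp4b1* between 43 and 72. The members summed to 1013 FPKM in the lowest library and 1590.1 FPKM in the highest. Family 2 held 72.4% to 79.7% of that sum, family 4 held 20.2% to 27.6%, and family 3, known mainly from liver and intestine, held 0.0613% to 0.109%.

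By mean level over the 6 libraries, 9 members lay at 5 FPKM or above, 10 between 0.5 and 5 FPKM, 4 between 0.1 and 0.5 FPKM and 28 under 0.1 FPKM. The 19 members with a mean of at least 0.5 FPKM entered the comparison of PM2.5 with saline: 10 of family 2, 1 of family 3 and 8 of family 4. The 4 members just under that limit were the liver enzyme *Cyp3a11* at a mean of 0.459 FPKM, the vitamin D 25-hydroxylase *Cyp2r1* at 0.313 FPKM, *Cyp2c29* at 0.216 FPKM and the arachidonic acid epoxygenase *Cyp2c44* at 0.178 FPKM. Of the 28 lowest members, 25 were listed at 0 in at least 1 library and 9 in 5 of the 6, and the highest value of any of them in a library was 0.167 FPKM, for *Cyp2d9*. Because such a table may also list 0 where an estimate failed, a 0 is not read here as absence. No gene of the table was at 0 in all 6 libraries, so P450 genes without any signal may be missing from the members. None of the 10 members on chromosome 19, where the *Cyp2c* genes lie, reached a mean of 0.5 FPKM.

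In the order of levels, *Cyp2f2* was 3.05 times *Cyp4b1* and *Cyp4b1* was 4.08 times *Cyp2b10* by mean FPKM, and neither pair overlapped in range over the 6 libraries. *Cyp2b10* lay above *Cyp2s1* in 6 of 6 libraries, although their ranges over all libraries overlapped. Below these, ranges of neighbouring members overlapped, except that *Cyp4f17* lay above *Cyp2d22*, and *Cyp2u1* above *Cyp2ab1*, in every library with no overlap in range.

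**Figure D1:**
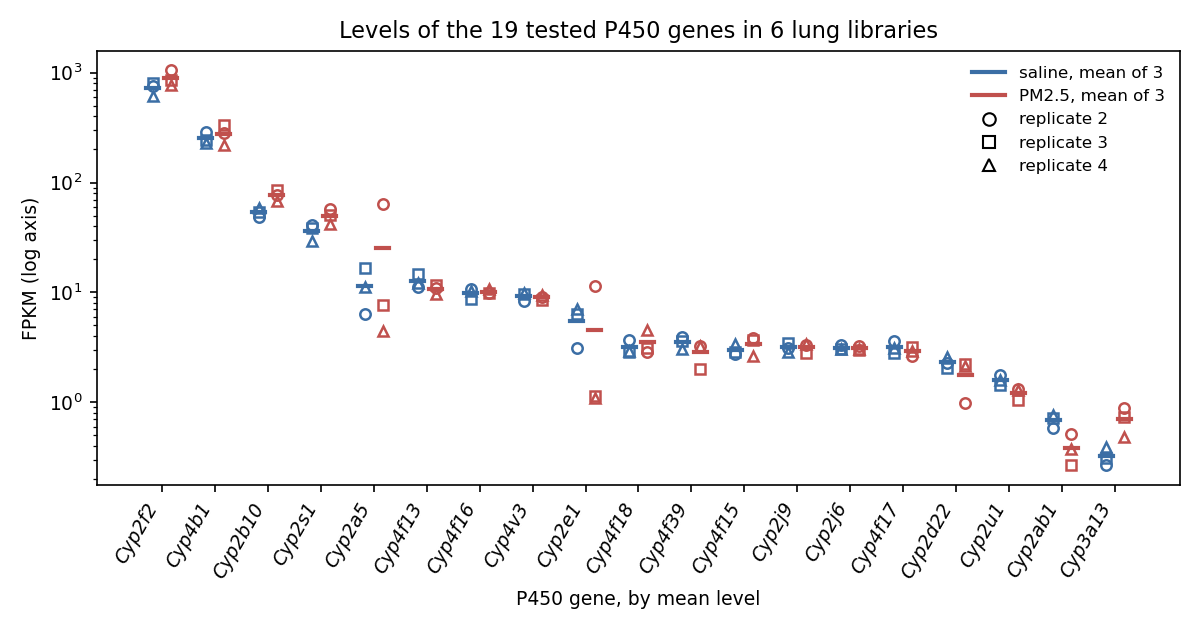
FPKM on a log axis of the 19 tested members in each of the 6 libraries, ordered by mean level, with saline in blue, PM2.5 in red, a symbol for each replicate number and a bar for the mean of 3 libraries. *Cyp2f2* sits between 618 and 1047 FPKM and *Cyp3a13* between 0.268 and 0.880 FPKM, and the libraries of *Cyp2a5* and *Cyp2e1* spread more widely than those of any other member shown.

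The most abundant member, *Cyp2f2*, is the naphthalene epoxidase of club cells. Its gene lies on chromosome 7 on the plus strand (chr7:27119909-27133660, mm10). It stood at 763, 798 and 618 FPKM in the saline libraries and at 1047, 858 and 776 FPKM in the PM2.5 libraries. PM2.5 replicate 2 was highest and saline replicate 4 lowest, and the groups overlapped, since saline replicate 3 lay above PM2.5 replicate 4. The means were 726 ± 95.5 and 894 ± 139 FPKM (SD, n = 3 each), and the fitted difference on the log2(FPKM + 0.5) scale, PM2.5 minus saline, was 0.30 with an SE of 0.17 and a 95% interval of -0.13 to 0.72. It did not pass the threshold of 0.05 on the adjusted p (limma with Benjamini-Hochberg adjustment, adjusted p = 0.565). The log2 difference was 0.18 without PM2.5 replicate 2 and 0.19 without saline replicate 4, so leaving out either library moved it by over 1.5 times.

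*Cyp2f2* is listed with 3 transcripts, and ENSMUST00000003100 carried 91.7% of its level. That transcript stood at 701, 706 and 610 FPKM with saline and at 962, 784 and 695 FPKM with PM2.5. The second transcript, ENSMUST00000133841, was at 57.5, 90.7 and 7.90 FPKM with saline and at 81.7, 70.3 and 79.0 FPKM with PM2.5. Saline replicate 4 thus stood far below the other libraries in the second transcript but not in the main one. A noncoding transcript of the NONCODE database, NONMMUT060324.2, lies wholly inside *Cyp2f2* on the same strand and averaged 13.6 FPKM with saline and 15.7 FPKM with PM2.5. Reads of *Cyp2f2* itself may be part of that value, which was not tested.

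Next came *Cyp4b1*, a family 4 enzyme of airway cells that turns plant furans such as 4-ipomeanol into reactive products. Saline libraries held 289, 242 and 231 FPKM and PM2.5 libraries 279, 334 and 219 FPKM. PM2.5 libraries held both the highest and the lowest value, so the groups overlapped fully. The fitted log2 difference was 0.11 ± 0.18 (SE), with a 95% interval of -0.33 to 0.56 (limma, adjusted p = 0.846), and it ranged from -0.03 without PM2.5 replicate 3 to 0.27 without PM2.5 replicate 4.

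Of the foreign-compound enzymes of family 2, *Cyp2b10* showed the smallest p-value of all members. It is the mouse gene classically induced through the constitutive androstane receptor. Saline libraries held 48.0, 53.7 and 58.6 FPKM, and PM2.5 libraries 77.1, 86.0 and 67.3 FPKM. All 3 PM2.5 libraries lay above all 3 saline libraries. The means were 53.4 ± 5.27 and 76.8 ± 9.35 FPKM (SD, n = 3 each). The log2 difference was 0.52 with an SE of 0.12 and a 95% interval of 0.22 to 0.82 (limma, unadjusted p = 0.00557, adjusted p = 0.253). Over 14 other settings the log2 difference ranged from 0.43 to 0.61 and the adjusted p from 0.225 to 0.523, and none of these settings brought it past the threshold. The transcript ENSMUST00000072438 carried 95.1% of the level and averaged 50.1 FPKM with saline and 73.7 FPKM with PM2.5.

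*Cyp2s1* encodes an airway and skin enzyme known to be inducible through the aryl hydrocarbon receptor. It stood at 41.3, 38.3 and 29.4 FPKM with saline and at 56.8, 50.9 and 42.3 FPKM with PM2.5. The lowest PM2.5 library lay just above the highest saline library, so the groups did not overlap. The log2 difference was 0.46 ± 0.17 (SE), with a 95% interval of 0.05 to 0.87 (limma, unadjusted p = 0.0328, adjusted p = 0.382). It was 0.36 without PM2.5 replicate 2 and 0.32 without saline replicate 4.

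*Cyp2a5* encodes the coumarin 7-hydroxylase of mouse liver, nose and airways. It was at 6.38, 16.7 and 11.3 FPKM with saline and at 63.5, 7.71 and 4.42 FPKM with PM2.5. PM2.5 replicate 2 was 3.79 times the highest saline library and 10.5 times the mean of the other PM2.5 libraries, while PM2.5 replicate 4 was the lowest of all. Its coefficient of variation over the 6 libraries was 123%, the highest of the tested members. The log2 difference was 0.30 ± 0.98 (SE) over all libraries and -0.81 without PM2.5 replicate 2, with limma adjusted p-values of 0.939 and 0.579. Reads of *Cyp2a5* and its near-identical copy *Cyp2a4*, listed at a mean of 0.00917 FPKM, may have been split by the authors' counting, so both levels are uncertain.

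These 4 genes, *Cyp2s1*, *Cyp2b10*, *Cyp2a5* and *Cyp2f2*, share a cluster of 12 members on chromosome 7 that spans 1356 kb (chr7:25802475-27158668, mm10). Their start regions are shown because they are the expressed genes of the cluster, beside 8 members that averaged under 0.1 FPKM. Each window runs from 250 bases before to 50 bases after the annotated start (RefSeq, GRCm38.p6), 5′ to 3′ on the strand of the gene, and capitals mark matches on either strand to the motifs named after the sequences. The windows are chr7:27119705-27120004 on the plus strand for *Cyp2f2*, chr7:25897408-25897707 on the plus strand for *Cyp2b10*, chr7:25816476-25816775 on the minus strand for *Cyp2s1* and chr7:26835089-26835388 on the plus strand for *Cyp2a5*.
Cyp2f2: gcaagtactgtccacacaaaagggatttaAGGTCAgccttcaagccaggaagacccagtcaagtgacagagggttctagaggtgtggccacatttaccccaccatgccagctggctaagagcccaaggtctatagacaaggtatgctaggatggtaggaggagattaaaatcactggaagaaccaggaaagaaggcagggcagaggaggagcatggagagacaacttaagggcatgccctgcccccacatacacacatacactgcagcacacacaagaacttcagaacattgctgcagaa
Cyp2b10: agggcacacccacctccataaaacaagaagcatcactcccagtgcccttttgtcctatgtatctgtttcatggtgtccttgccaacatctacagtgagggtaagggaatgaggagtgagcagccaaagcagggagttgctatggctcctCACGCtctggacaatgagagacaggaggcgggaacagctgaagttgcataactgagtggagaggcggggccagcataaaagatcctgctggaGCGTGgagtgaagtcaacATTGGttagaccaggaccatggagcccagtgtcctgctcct
Cyp2s1: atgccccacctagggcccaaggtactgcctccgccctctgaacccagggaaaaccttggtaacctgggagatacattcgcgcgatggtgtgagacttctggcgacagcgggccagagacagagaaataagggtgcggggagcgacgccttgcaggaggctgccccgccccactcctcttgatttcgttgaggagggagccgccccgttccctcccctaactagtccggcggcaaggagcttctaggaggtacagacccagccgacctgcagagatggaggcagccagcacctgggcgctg
Cyp2a5: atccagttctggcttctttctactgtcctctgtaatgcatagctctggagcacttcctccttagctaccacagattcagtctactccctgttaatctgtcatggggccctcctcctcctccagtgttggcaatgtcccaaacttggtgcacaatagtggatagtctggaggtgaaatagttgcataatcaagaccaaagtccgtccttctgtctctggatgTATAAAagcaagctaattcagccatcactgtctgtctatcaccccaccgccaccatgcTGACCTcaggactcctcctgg

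The motifs searched were the TATA box as TATAAA, the CCAAT box as CCAAT, a forkhead word as TGTTTNC, the nuclear receptor half-site as AGGTCA and the core of the aryl hydrocarbon receptor element as GCGTG, on both strands. No word is contained in another. They are short and common: of 32851 RefSeq windows of this length, 13.6% held TATAAA, 37.4% CCAAT, 20.5% TGTTTNC, 16.3% AGGTCA and 32.4% GCGTG. The *Cyp2f2* window held AGGTCA at positions -221 to -216 from the start. In the *Cyp2b10* window GCGTG lay at -9 to -5 and, on the opposite strand, at -101 to -97, and CCAAT lay on the opposite strand. The *Cyp2a5* window held TATAAA at -29 to -24 and AGGTCA on the opposite strand beyond the start. None of the 5 words was found in the *Cyp2s1* window, which had a GC content of 63% against 49% to 53% in the other windows. Windows were at hand for 44 of the 51 members, and 16 held TATAAA, 24 CCAAT, 10 TGTTTNC, 13 AGGTCA and 9 GCGTG. A member was counted if any of its windows held the word, and some members had several, while the shares above are per window. Of the 16 tested members with a window, 2 held TATAAA, 10 CCAAT, 3 TGTTTNC, 2 AGGTCA and 6 GCGTG. A match describes letters only, and no factor binding was measured.

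Genes with high and with low levels were interleaved in this cluster. *Cyp2s1* and *Cyp2b10* lay at its lower end, 95.1 kb apart. *Cyp2b13*, *Cyp2b9*, *Cyp2a4*, *Cyp2b19* and *Cyp2g1* followed, each with a mean under 0.03 FPKM over the 6 libraries. *Cyp2a5* came after them, then *Cyp2a22* and *Cyp2a12*, and then *Cyp2f2* with *Cyp2t4* beyond it. Chromosome 7, with 14 members in all, held 74.6% of the members' summed mean level, chromosome 4 held 21.5% with *Cyp4b1* and the *Cyp2j* genes, and chromosome 17 held 2.47% with most of the *Cyp4f* genes.

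**Figure D2:**
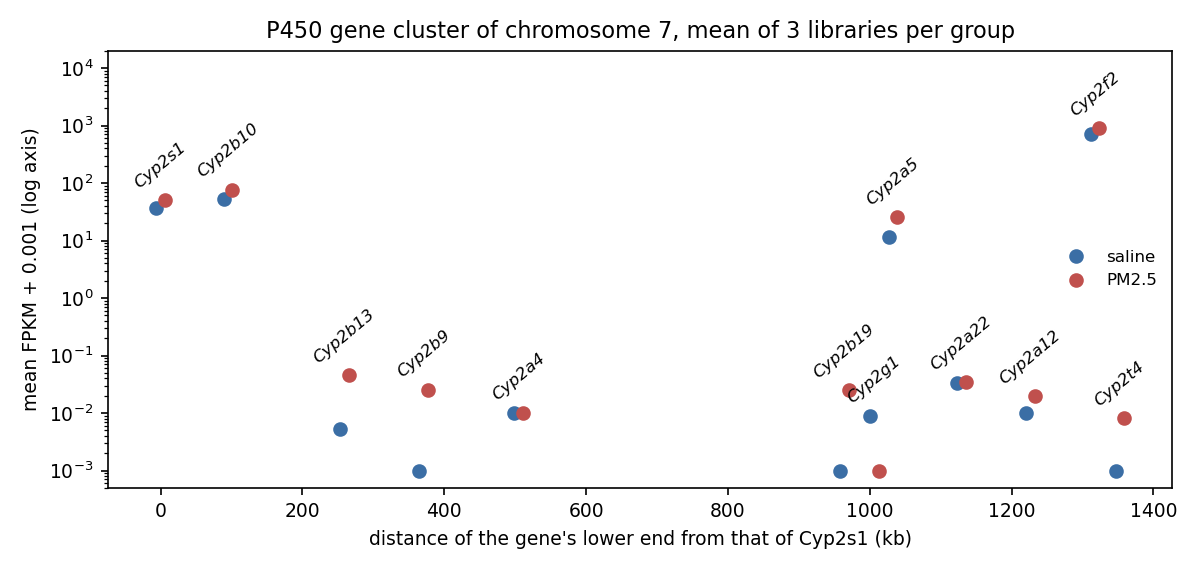
Mean level (FPKM + 0.001, log axis) of the 12 members of the chromosome 7 cluster in saline (blue) and PM2.5 (red) lungs against the distance of each gene's lower end from that of *Cyp2s1* in kb. Points are means of 3 libraries, shifted slightly to either side, and 4 genes lie above 10 FPKM while the other 8 lie under 0.1 FPKM.

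*Cyp2e1*, which oxidizes ethanol and small solvents, lies elsewhere on chromosome 7. It was at 3.11, 6.39 and 7.11 FPKM with saline and at 11.3, 1.15 and 1.09 FPKM with PM2.5. PM2.5 replicate 2 was the highest of the 6 libraries and the other two PM2.5 libraries were the lowest, a 10.4-fold range. The log2 difference was -0.87 ± 0.83 (SE) over all libraries (limma, adjusted p = 0.725) and -1.83 without PM2.5 replicate 2. It was -0.41 without PM2.5 replicate 3 and -0.38 without PM2.5 replicate 4. Over the 14 other settings the adjusted p ranged from 0.248, without PM2.5 replicate 2, to 0.912.

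The spread of *Cyp2a5* and *Cyp2e1* was shared with other genes, which were picked here after their values were seen. *Bpifa1*, a secreted airway protein, stood at 83.2, 227 and 49.1 FPKM with saline and at 725, 7.09 and 5.74 FPKM with PM2.5. The secretoglobin *Scgb3a1* stood at 28.0, 203 and 85.7 FPKM and at 263, 19.9 and 9.88 FPKM in the same order. Like *Cyp2a5*, both were highest in PM2.5 replicate 2, second in saline replicate 3 and lowest in PM2.5 replicate 4. *Adipoq*, the fat cell hormone adiponectin, stood at 2.00, 5.39 and 2.61 FPKM with saline and at 7.92, 0.211 and 0.247 FPKM with PM2.5. The muscle and fat carbonic anhydrase *Car3* stood at 16.2, 38.8 and 22.8 FPKM and at 57.3, 2.45 and 1.57 FPKM. Like *Cyp2e1*, both were highest in PM2.5 replicate 2 and low in the other two PM2.5 libraries.

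Summed over the whole adipocyte list of 10 genes, saline libraries held 75.8 to 105 FPKM and PM2.5 libraries 28.2 to 159 FPKM. The club cell list of 14 genes, in which *Bpifa1*, *Scgb3a1* and *Cyp2f2* itself are included, summed to 7759 to 9894 FPKM with saline and 5756 to 6498 FPKM with PM2.5. *Scgb1a1* makes up most of that sum; by the mean log2 level of the 14 genes PM2.5 replicate 2 was the highest library, at 6.63 against 4.76 to 5.99 in the others. Over the list 8 of 14 log2 differences were positive, with a median of 0.12. For hepatocytes, another cell type known for *Cyp2e1* and *Cyp2a5*, 3 of 12 list genes reached a mean of 0.5 FPKM, and the list summed to 5.35 to 11.0 FPKM with saline and 6.68 to 11.2 FPKM with PM2.5. All 3 were highest in PM2.5 replicate 2. Their mean log2 level was 1.42 there, 1.35 in saline replicate 4 and 0.314 to 0.997 in the others. *Cyp2e1* also had saline replicate 4 second, while *Adipoq* and *Car3* had saline replicate 3 second. The hepatocyte mean was lowest in saline replicate 2, and *Cyp2e1* in PM2.5 replicate 4. *Alb* lay between 3.37 and 6.05 FPKM. No gene of these 3 lists was at 0 in all libraries. The same held for every gene of the table, so nothing is read from it. The part of other cells in the levels of *Cyp2a5* and *Cyp2e1* was not tested.

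**Figure D3:**
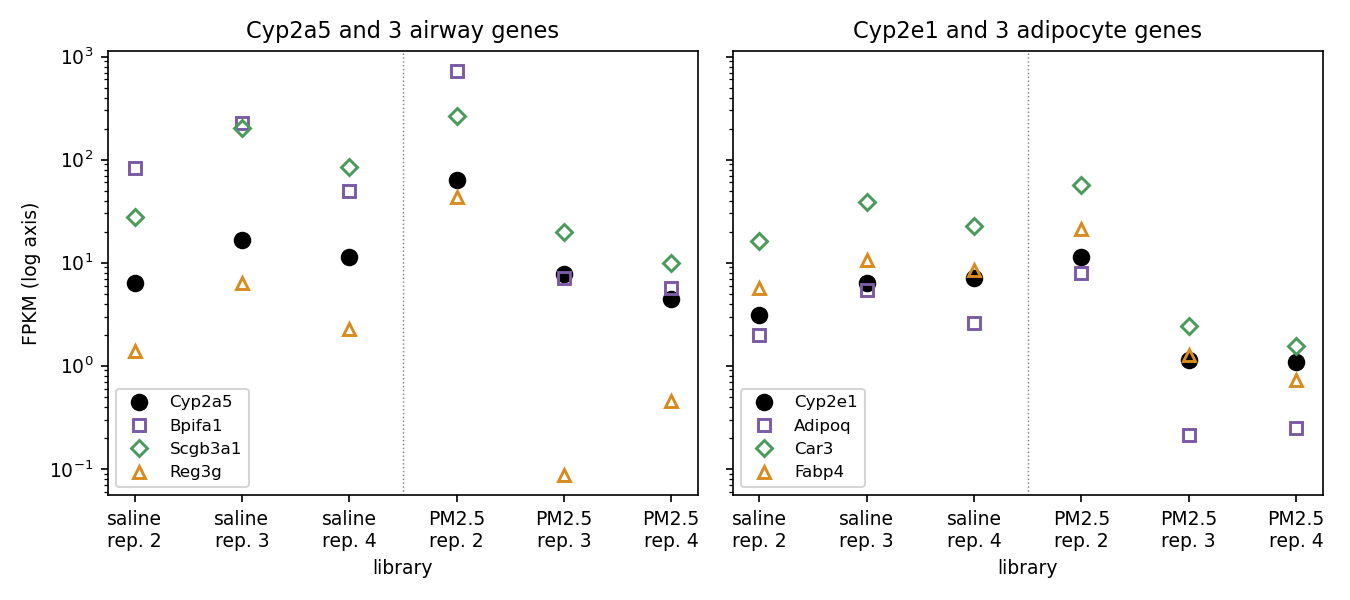
FPKM on a log axis in each of the 6 libraries for *Cyp2a5* beside 3 airway genes (left) and *Cyp2e1* beside 3 adipocyte genes (right), with the member as filled circles. PM2.5 replicate 2 is the highest library for every gene shown, with *Cyp2a5* at 63.5 FPKM and *Cyp2e1* at 11.3 FPKM.

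The 3 most abundant fatty acid hydroxylases of subfamilies 4F and 4V lay in the middle of the order. *Cyp4f13*, of the family that hydroxylates leukotriene B4 and related fatty acids, stood at 11.2, 14.7 and 12.2 FPKM with saline and at 10.9, 11.7 and 9.68 FPKM with PM2.5. Its groups overlapped, and the log2 difference was -0.23 ± 0.13 (SE; limma, adjusted p = 0.559), or -0.12 without saline replicate 3. *Cyp4f16* stood at 10.7, 8.71 and 10.3 FPKM with saline and at 9.79, 9.76 and 10.8 FPKM with PM2.5, divided over 9 listed transcripts of which the largest carried 20.9%. Its libraries were mixed in order, and its log2 difference was 0.03 with a 95% interval of -0.23 to 0.29. *Cyp4v3*, whose human counterpart CYP4V2 is mutated in a retinal dystrophy, stood at 8.35, 9.74 and 9.76 FPKM with saline and at 9.08, 8.54 and 9.50 FPKM with PM2.5. It varied by 6.68% over the 6 libraries, and its log2 difference was -0.03 with an interval of -0.28 to 0.21. A transcript of the neighbouring gene *Klkb1* lies 99.1% inside the *Cyp4v3* span on the same strand, with a mean of 0.219 FPKM with saline and 0.351 FPKM with PM2.5.

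The other *Cyp4f* members lay lower. *Cyp4f39*, whose human counterpart CYP4F22 makes skin barrier lipids, was at 3.96, 3.62 and 3.03 FPKM with saline and at 3.24, 2.01 and 3.26 FPKM with PM2.5. *Cyp4f15* was at 2.77, 2.85 and 3.35 FPKM with saline and at 3.81, 3.69 and 2.63 FPKM with PM2.5. Both genes overlapped between groups, with log2 differences of -0.29 and 0.14. That of *Cyp4f39* was -0.10 without PM2.5 replicate 3, and that of *Cyp4f15* ranged from 0.06 without PM2.5 replicate 2 to 0.29 without PM2.5 replicate 4. *Cyp4f18*, the leukotriene B4 hydroxylase of mouse neutrophils, ranged from 2.84 to 4.51 FPKM and *Cyp4f17* from 2.65 to 3.58 FPKM over the 6 libraries. None of the 8 tested family 4 members reached an unadjusted p under 0.05, and none had groups without overlap. Their log2 differences were positive for 4 and negative for 4, with a median of 0.00.

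The tested arachidonic acid oxidizers of family 2 included *Cyp2j6* and *Cyp2j9*, while *Cyp2j5* and *Cyp2j8* lay under 0.1 FPKM. *Cyp2j6* ranged from 2.97 to 3.29 FPKM, a coefficient of variation of 4.33%, the lowest of the tested members, and *Cyp2j9* from 2.79 to 3.46 FPKM. The 95% intervals of their log2 differences, -0.28 to 0.24 and -0.31 to 0.32, leave room for changes of that size. *Cyp2u1*, a fatty acid hydroxylase whose human counterpart is mutated in a hereditary spastic paraplegia, stood at 1.76, 1.42 and 1.60 FPKM with saline and at 1.32, 1.04 and 1.29 FPKM with PM2.5. All PM2.5 libraries of *Cyp2u1* lay below all saline libraries, with a log2 difference of -0.29 ± 0.14 (SE; limma, unadjusted p = 0.0918, adjusted p = 0.511). Its transcript ENSMUST00000106337, with 81.4% of the level, averaged 1.36 FPKM with saline and 0.931 FPKM with PM2.5 (limma on all transcripts, unadjusted p = 0.0381, adjusted p = 0.518).

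Lower family 2 members and the only tested family 3 member lay near the limit of the test. *Cyp2d22*, the mouse 2D member with wide tissue expression, was at 2.29, 2.05 and 2.60 FPKM with saline and at 0.987, 2.21 and 2.13 FPKM with PM2.5, where PM2.5 replicate 2 alone stood apart. The log2 difference of *Cyp2d22* was -0.35 ± 0.26 (SE; limma, adjusted p = 0.648) over all libraries and -0.07 without PM2.5 replicate 2. *Cyp2ab1* stood at 0.586, 0.714 and 0.768 FPKM with saline and at 0.513, 0.266 and 0.376 FPKM with PM2.5. Every PM2.5 library of *Cyp2ab1* was below every saline library, with a log2 difference of -0.43 ± 0.17 (SE; limma, unadjusted p = 0.0460, adjusted p = 0.426). *Cyp3a13*, a family 3 enzyme of mouse intestine and liver, was at 0.268, 0.307 and 0.391 FPKM with saline and at 0.880, 0.732 and 0.481 FPKM with PM2.5. All its PM2.5 libraries lay above its saline libraries, with a log2 difference of 0.53 ± 0.19 (SE; limma, unadjusted p = 0.0290, adjusted p = 0.374). *Cyp3a13* passed the limit of 0.5 FPKM through its PM2.5 libraries and dropped out of the test when PM2.5 replicate 2 or 3 was left out. *Cyp2ab1* passed that limit through its saline libraries and dropped out without saline replicate 4.

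The study compares saline with particle instillation, and over the whole of the 3 families no member passed the test. With limma and Benjamini-Hochberg adjustment over 14865 genes, 0 of the 19 tested members reached an adjusted p under 0.05, against 14 of all genes tested, or 0.0942%, and the members' count was also 0 without PM2.5 replicate 2. The smallest adjusted p of a member was 0.253, for *Cyp2b10*. At an unadjusted p under 0.05, 3 members were higher with PM2.5 (*Cyp2b10*, *Cyp3a13* and *Cyp2s1*), against 3.66% of all genes tested, and 1 was lower (*Cyp2ab1*), against 7.82%. In 3 members all PM2.5 libraries lay above all saline libraries, against 7.04% of all genes, and in 2 members, *Cyp2u1* and *Cyp2ab1*, they lay below, against 11.8%. *Cyp3a13* and *Cyp2ab1* entered the test only through the group in which they were high, so their place in these counts followed from the filter and nothing is read from the counts about the members. The members' log2 differences had a median of 0.00, with 10 positive and 9 negative, while over all genes tested the median was -0.03 with 6534 positive and 8331 negative. In a separate limma fit of single transcripts, 0 of 39 member transcripts passed, against 0.152% of 60525 transcripts, and at an unadjusted p under 0.05 3 were higher, against 4.56%, and 1 was lower, against 4.89%. The smallest adjusted p there was 0.390, for ENSMUST00000072438 of *Cyp2b10*.

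**Figure D4:**
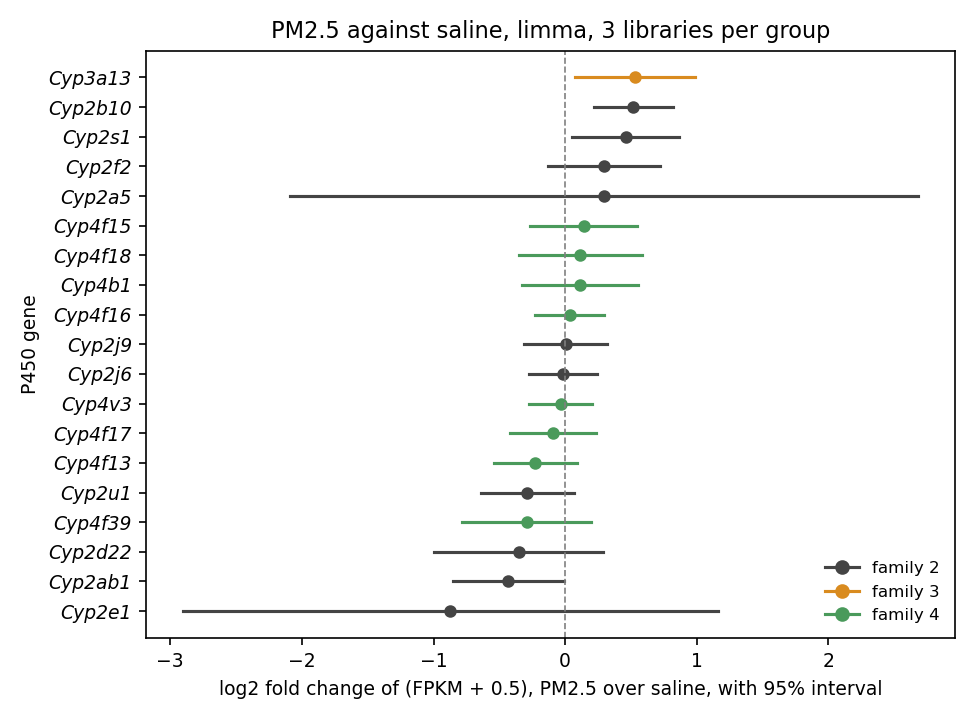
Log2 difference of (FPKM + 0.5), PM2.5 minus saline, with its 95% interval from limma for the 19 tested members (3 libraries per group), coloured by family. Intervals of *Cyp2b10* and *Cyp2s1* miss 0 before adjustment. Those of *Cyp3a13* and *Cyp2ab1* also miss 0, but both genes passed the filter only through the group in which they were high, so nothing is read from them. The widest intervals are those of *Cyp2a5* (-2.09 to 2.68) and *Cyp2e1* (-2.90 to 1.16).

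*Cyp2f2* was also set against *Scgb1a1*, the other classical club cell gene. *Scgb1a1* stood at 8086, 7384 and 6377 FPKM with saline and at 2565, 4614 and 4956 FPKM with PM2.5. All PM2.5 libraries of *Scgb1a1* lay below all saline libraries, while those of *Cyp2f2* overlapped with saline at a higher mean. The log2 difference of *Scgb1a1* was -0.90 ± 0.34 (SE; limma, unadjusted p = 0.0370, adjusted p = 0.398). It was -0.60 without PM2.5 replicate 2 and -0.46 after quantile normalization, which moved it by over 1.5 times. As a percentage of *Scgb1a1*, *Cyp2f2* stood at 9.43%, 10.8% and 9.69% with saline and at 40.8%, 18.6% and 15.7% with PM2.5. The means were 9.97% ± 0.73 and 25.0% ± 13.8 (SD, n = 3 each), with no overlap, also without PM2.5 replicate 2. An exact 2-sided permutation test over the 20 assignments of 6 libraries gave p = 0.1, the smallest that 3 against 3 allows. This ratio was not among the planned comparisons. *Scgb1a1* alone already separated the groups, so the permutation p gives no further support. The very abundant *Sftpc* spread widely within both groups, and what this means for *Scgb1a1* was not tested.

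**Figure D5:**
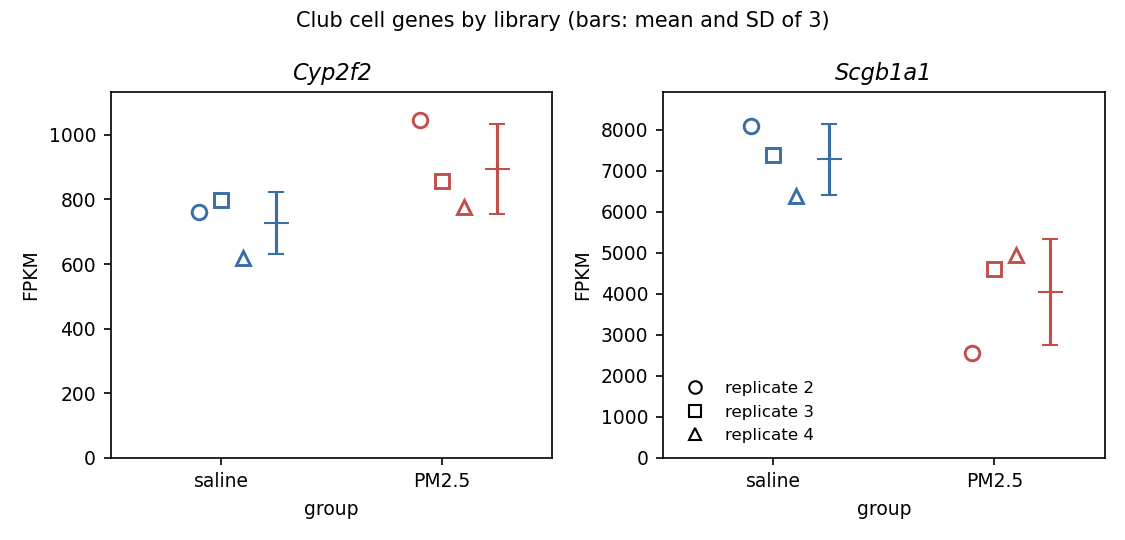
FPKM of *Cyp2f2* (left) and *Scgb1a1* (right) in each library, with a symbol per replicate number and bars for the mean and SD of 3 libraries per group. The groups overlap for *Cyp2f2*, while for *Scgb1a1* the PM2.5 libraries, at 2565 to 4956 FPKM, lie below the saline libraries, at 6377 to 8086 FPKM.

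The genes whose levels ran most like *Cyp2f2* were sought among 8078 genes with a mean of at least 5 FPKM, by Pearson's r of log2(FPKM + 0.5) over the 6 libraries. They were *Vwa3a* at r = 0.987, *Foxn2* at 0.985, *Fbxo42* at 0.985, *Tmem86b* at 0.982, *Gabrp* at 0.982 and *Fam216b* at 0.979. These are the highest of many values over few libraries that share their grouping, and they are given as a description only.

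The most abundant partners that deliver electrons to P450 enzymes lay near the level of *Cyp2b10*. *Por*, the P450 oxidoreductase, stood at 66.9, 65.3 and 78.7 FPKM with saline and at 57.9, 95.7 and 47.3 FPKM with PM2.5, with PM2.5 libraries both highest and lowest. Cytochrome b5, *Cyb5a*, averaged 57.2 ± 3.20 FPKM with saline and 58.2 ± 2.41 FPKM with PM2.5. Its mitochondrial outer membrane form *Cyb5b* averaged 35.8 and 33.2 FPKM. The cytochrome b5 reductase *Cyb5r3* was at 71.9 and 73.1 FPKM in saline replicates 3 and 4 and at 63.6 to 79.3 FPKM with PM2.5, but at 8.18 FPKM in saline replicate 2. The heme-binding *Pgrmc1* averaged 65.6 and 64.6 FPKM and *Pgrmc2* 14.9 and 16.7 FPKM. *Cyb5r1* averaged 6.53 FPKM with saline and 7.88 FPKM with PM2.5, and *Cyb5r2* was listed at 0 in 5 libraries. For the mitochondrial chain, *Fdx1* averaged 9.52 and 7.96 FPKM and *Fdxr* 2.45 and 2.42 FPKM. Of the 10 partners 9 were tested with limma, and 0 were past the adjusted threshold or at an unadjusted p under 0.05. At that unadjusted p, 3.66% of all genes tested were higher and 7.82% lower.

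Among 13 nuclear and xenobiotic receptors that control P450 genes, 9 were tested and 0 passed with limma. At an unadjusted p under 0.05, 1 was higher and 0 were lower, against 3.66% and 7.82% of all genes tested. That receptor was *Ahr*, the aryl hydrocarbon receptor, at 18.9, 14.3 and 14.3 FPKM with saline and at 26.9, 24.5 and 21.5 FPKM with PM2.5, without overlap (log2 difference 0.61 ± 0.14 SE, adjusted p = 0.252). *Rxra*, the partner of many of these receptors, averaged 22.0 and 23.2 FPKM, *Rxrb* 16.4 and 17.1 FPKM and *Ppard* 10.2 and 9.84 FPKM. The pregnane X receptor *Nr1i2*, which controls *Cyp3a* genes, averaged 0.237 FPKM with saline and 0.244 FPKM with PM2.5. The constitutive androstane receptor *Nr1i3*, which controls *Cyp2b10* in liver, averaged 0.0713 and 0.0665 FPKM. Both lay under the limit of the test and were picked after their values were seen.

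Neighbouring steps of foreign-compound and fatty acid metabolism were counted in the same fit. A list of fatty acid genes included epoxide hydrolases, fatty acid binding proteins, cyclooxygenases and lipoxygenases. Of its 9 tested genes, 0 passed and 0 had an unadjusted p under 0.05. The epoxide hydrolase *Ephx1*, which acts on P450 products, averaged 48.9 ± 4.93 FPKM with saline and 55.3 ± 3.04 FPKM with PM2.5. Of 20 tested other oxidizing and hydrolysing enzymes, 0 passed and 2, *Cyp1a1* and the quinone reductase *Nqo1*, were lower at an unadjusted p under 0.05. The flavin monooxygenase *Fmo2* of the same list averaged 263 and 280 FPKM, close to the level of *Cyp4b1*. Of 15 tested conjugating enzymes 0 passed and 1, *Gstm5*, was lower at that p, and *Gstm1* averaged 122 and 121 FPKM. Of 11 heme synthesis genes 0 passed and 1, the erythroid *Alas2*, was higher at that p, at 45.7 ± 6.32 and 64.3 ± 3.76 FPKM. *Alas1*, the enzyme that supplies heme for P450 proteins, ranged from 20.5 to 46.0 FPKM with saline and from 19.3 to 54.6 FPKM with PM2.5. *Cyp1a1*, *Nqo1* and *Gstm5* are named for these counts, after their values were seen. Over all genes tested, 3.66% were higher and 7.82% lower at an unadjusted p under 0.05, and no list is read as changed from these counts.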

How the data were processed

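Lung RNA was sequenced in 6 libraries, made with a kit that does not mark the strand, per the labels' protocols. HISAT2, bcl2fastq and the mm10 build are named in the submitters' processing notes, with no versions. The sources used here do not give the quantifier or the annotation. The authors deposited a table of transcripts by libraries, and its values were taken as FPKM from the size of the column sums, since the header names no unit. The number of fragments behind a value is unknown, so no counting interval is given.

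Ensembl values were summed per symbol and groups were taken from the sample labels. Genes with a mean of at least 0.5 FPKM entered a 2-sided limma fit (version 3.58.1, R 4.3.3) of log2(FPKM + 0.5), with a mean trend and Benjamini-Hochberg adjustment over all genes tested. A log2 difference on this scale understates the change of low genes. All transcripts were fitted in the same way. The code was tested on simulated data.

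Members and the 17 gene lists were chosen with earlier results of these data known. Values of each library are given for members that averaged 5 FPKM or more and for up to 5 members per direction with the lowest p, other tested members by range. Redox partners are given in full, and other lists by up to 4 genes with the highest mean. Other genes are said to have been picked later.

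Each of these choices was changed in turn: the pseudocount (1 or 0.1), the filter (none, or 2 FPKM), the scaling (median ratios or quantiles), the replicate block, the libraries (leaving each out) and the sums (locus sums, which add NONCODE transcripts at least 50% inside a gene and on the same strand). NONCODE transcripts and position-less transcripts named MERGE, which held 17.6% to 20.6% of a library's FPKM, were otherwise left out of the gene sums. Near-identical copies within the *Cyp2a*, *Cyp2b*, *Cyp2c*, *Cyp2d*, *Cyp2j*, *Cyp3a* and *Cyp4f* subfamilies may share reads, so the split between such copies is uncertain.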

Additional observations from a re-analysis of the deposited data

How the results depend on the processing

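No member and no member transcript passed the adjusted threshold under any alternative run, including the replicate block, where 0 members passed, the log2 difference of *Cyp2b10* was 0.52 and 1 of all genes passed instead of 14. Same-numbered libraries of the 2 groups did not deviate together (correlations of deviations -0.0332, -0.0292 and 0.0497 over 14865 genes), so the numbers were not taken to pair samples. Over the alternatives 242 single fold changes kept their direction and 18 changed sign, all with small or widely spread log2 differences. Leaving out a library in turn gave log2 differences of -0.0304 to 0.274 for *Cyp4b1*, -0.815 to 1.04 for *Cyp2a5*, -0.0515 to 0.0897 for *Cyp4f16*, -0.105 to 0.0040 for *Cyp4v3*, -0.0597 to 0.234 for *Cyp4f18*, -0.0532 to 0.0804 for *Cyp2j9* and -0.0535 to 0.0131 for *Cyp2j6*. Median-ratio scaling turned *Cyp4v3* to 0.0061 and *Cyp2j6* to 0.0191, and *Cyp2j6* was 0.0552 after quantile normalization. The cause of these shifts with scaling was not tested. With locus sums *Cyp2j6* was 0.0614, *Cyp2u1* -0.17 and *Cyp3a13* 0.75 (limma, adjusted p = 0.229). Those sums add a NONCODE transcript that averaged 0.425 FPKM with saline and 0.652 FPKM with PM2.5 in *Cyp2j6*. It averaged 0.0902 and 0.228 FPKM in *Cyp2u1*, and 0.0736 and 0.305 FPKM in *Cyp3a13*. Reads of the members themselves may be part of these NONCODE values, which was not tested. With a pseudocount of 0.1 *Cyp2ab1* was -0.73 and *Cyp3a13* 0.90. The filter at 2 FPKM left *Cyp2u1*, *Cyp2ab1* and *Cyp3a13* untested, as did leaving out saline replicate 4 for *Cyp2ab1* and PM2.5 replicate 2 or 3 for *Cyp3a13*. The unknown number of fragments limits what can be said of members under 0.5 FPKM.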

Other observations

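Outside the rule that defined the members, 24 other P450 symbols were listed and 9 were tested. Most belong to other families, but *Cyp4a12b*, which was tested, *Cyp4a12a* and some pseudogenes belong to families 2 and 4. With limma 0 of the 9 passed the adjusted threshold. At an unadjusted p under 0.05, 1 (*Cyp39a1*) was higher and 2 (*Cyp1a1* and *Cyp51*) were lower. At that unadjusted p, 3.66% of all genes tested were higher and 7.82% lower. These other P450 genes were looked at after the members' values were known. *Cyp1a1*, the polycyclic hydrocarbon hydroxylase that is the classical target of the aryl hydrocarbon receptor, stood at 16.2, 31.0 and 23.4 FPKM with saline and at 9.95, 15.7 and 8.50 FPKM with PM2.5. All its PM2.5 libraries lay below all its saline libraries (means 23.5 ± 7.42 and 11.4 ± 3.82 FPKM, limma adjusted p = 0.325), while *Ahr* and *Cyp2s1* were at higher means with PM2.5. The sterol demethylase *Cyp51* averaged 8.21 ± 0.529 FPKM with saline and 6.01 ± 0.582 FPKM with PM2.5 (limma adjusted p = 0.268). *Cyp39a1*, an oxysterol hydroxylase, averaged 5.74 ± 0.316 and 7.71 ± 0.813 FPKM (limma adjusted p = 0.296). *Cyp1b1*, which oxidizes polycyclic hydrocarbons and estrogens, averaged 2.10 and 1.74 FPKM. *Cyp4a12b*, a fatty acid hydroxylase whose symbol ends in a letter, was at 3.24 FPKM in PM2.5 replicate 2 but listed at 0 in PM2.5 replicate 3 and at 0.0444 FPKM in PM2.5 replicate 4. Like *Cyp2e1*, it was highest in PM2.5 replicate 2 among all libraries.

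Among the 11 lists of cell type markers, 0 genes passed the adjusted threshold with limma. At an unadjusted p under 0.05, 3 of 6 tested mesothelial genes (*Msln*, *Upk3b* and *Rspo1*) and 1 of 12 ciliated cell genes (*Tppp3*) were higher, and 2 of 11 endothelial genes (*Cldn5* and *Ednrb*) and 2 of 11 heart muscle genes (*Tnni3* and *Myl3*) were lower. For alveolar type 1 cells 1 of 10 was higher (*Rtkn2*) and 2 were lower (*Pdpn* and *Hopx*), for club cells 1 of 14 was lower (*Scgb1a1*) and for neutrophils 1 of 9 was higher (*S100a9*). These genes are named for the counts, after their values were seen. The mesothelial list summed to 81.5 to 88.3 FPKM with saline and 64.0 to 93.6 FPKM with PM2.5. Over all genes tested, 3.66% were higher and 7.82% lower at an unadjusted p under 0.05, and no list is read as changed from these counts. No tested alveolar type 2, macrophage, hepatocyte or adipocyte gene reached that p. Heart muscle genes summed to 206 to 437 FPKM with saline. With PM2.5 they summed to 307 FPKM in replicate 2 and to 40.7 and 59.2 FPKM in replicates 3 and 4. The log2 differences of all 11 tested heart muscle genes were negative (median -1.70). Of the 9 tested adipocyte genes, 8 were negative and 1 was positive (median -1.08). Over all genes tested, 44.0% were positive. The cause was not tested.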
